A study of Homo sapiens with 4 samples.

Results

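The regions described here are 661 sites where narrow ATAC-seq peaks were called in test 1, test 2 and control 2 but not in control 1. They were chosen by merging the narrow peaks of the 4 libraries on chromosomes 1 to 22 wherever they shared 1 bp or more, and they make up 3.83% of the 17258 merged regions. ATAC-seq uses a transposase that cuts and tags DNA where chromatin is open. All libraries came from OVSAHO, an established ovarian cancer cell line. Test cells were labelled SMARCA2 stable with SMARCA4 knockdown, which the design text gives as SMARCA2 raised and SMARCA4 lowered. Control cells were labelled WT, and Ctrl-siNC in the design text. Expression of either gene was not measured here. Control and test cells alike had been cultured in 25 µM carboplatin for 2 days, a platinum agent that links DNA strands to each other. Untreated cells are therefore in no group. Each group had 2 libraries from the same line, and nothing in the labels says that they were separate cultures.

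SMARCA2 and SMARCA4 are the alternative ATPase motors of SWI/SNF complexes, which slide and evict nucleosomes and so open promoters and enhancers. An open site yields short fragments cut within the nucleosome-free stretch, and longer fragments that span the flanking nucleosomes. A narrow peak here marks a pile of nucleosome-free fragments, and a broad peak a stretch enriched in fragments of all lengths. The sites are named by position on the hg19 build, because an hg19 genome and gene annotation were not used here. Their sequences are not printed for the same reason. Sites where reads map ambiguously were not filtered. A run of 3 values without library names is for test 1, test 2 and control 2, in that order.

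The libraries differed in depth and fragment length, and control 1 stood apart. It had 15828837 nucleosome-free fragments, and the other libraries 6146272, 6885374 and 7531794. Nucleosome-free fragments were 50.2% of its fragments, against 27.4% to 29.6% in the other libraries. Its mean fragment size was 131 bp against 178 to 182 bp. The part these differences play in the missing calls was not tested. Regions called in all 4 libraries crowded into 33 stretches of 1 Mb, named dense windows here, where at least 5 of them lay together.

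Control 1 was the library most often missing from an otherwise shared site. Of the 1314 regions with a peak in test 1, test 2 and control 2, 50.3% lacked a control 1 peak (661 regions, 95% exact interval 47.6 to 53.04). Regions of the other 3 libraries lacked test 1 in 21.0% of cases (174 of 827), control 2 in 7.64% (54 of 707) and test 2 in 6.04% (42 of 695). Outside dense windows the share without control 1 was 71.4% (650 of 911, 68.3 to 74.3), against 30.6% without test 1, 10.9% without control 2 and 7.77% without test 2. Dense windows are defined by regions that have a control 1 peak, and leaving them out removes 392 of the 653 regions called in all 4 libraries but 11 members. The rise from 50.3% to 71.4% is therefore set by that filter, and shares given below outside dense windows are raised in the same way. With a −log10 q of 5 or more asked of every peak, 220 regions lacked control 1, which was 28.9% of the otherwise shared regions. These shares restate the calls that define the sites, so no test was run, and the intervals cover counting error only.

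The median signal at these sites was moderate and similar in the 3 libraries, each of which needed a peak there by the rule. Fold enrichment, the authors' ratio of fragments over a peak to that library's background around it, had a median of 6.69 in test 1, with quartiles of 5.62 and 8.21. The median was 6.58 in test 2 (5.65 and 7.89) and 7.20 in control 2 (6.004 and 8.47). The lowest values were 3.44, 3.27 and 3.41, and the highest 30.2, 30.2 and 42.2. A fold above 10 in all 3 libraries was reached by 9 sites, and a fold above 20 by 2. Medians of the 2 test libraries lay closer to each other than either did to control 2, whose spread cannot be measured from a single library.

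The peaks rested on few fragments. The median pileup, the deposited coverage of the peak in fragments, was 9, 8 and 10. Treated as independent counts, such pileups carry exact Poisson 95% intervals of 4.12 to 17.1, 3.45 to 15.8 and 4.795 to 18.4. Duplicates were kept and peaks had to pass a threshold, and the intervals cover neither. Fold enrichments of single sites are imprecise on such counts. At 637 of the 661 sites the pileup was at most 20 in all 3 libraries. Across sites, fold enrichment of test 1 and test 2 had a Spearman rho of 0.344, and each had 0.297 and 0.347 with control 2. The 261 regions called in all 4 libraries outside dense windows gave 0.854, 0.857 and 0.876 for the same pairs over a wider range of folds. These correlations run across regions, which share a library and its depth and are no replicates. A −log10 q of 5 or more was deposited in all 3 libraries at 199 of the 661 sites and in none of them at 72. Of the 261 regions called in all 4 libraries outside dense windows, 198 reached it in all 3.

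**Figure D1:**
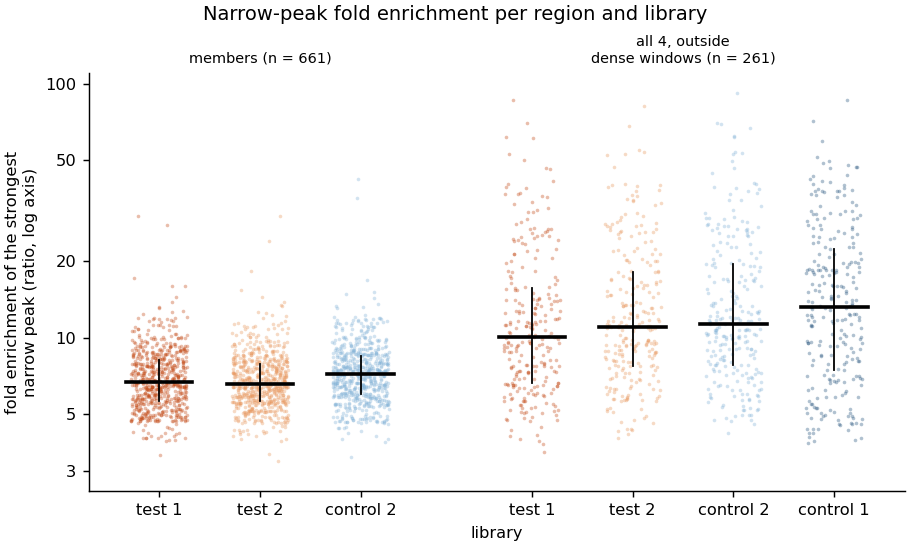
Each point is the fold enrichment of the strongest narrow peak of a region in a library (ratio, log axis), for the 661 members and for the 261 regions called in all 4 libraries outside dense windows. Thick bars mark medians and thin bars quartiles: members centre on 6.58 to 7.20, and the regions of all 4 libraries on 10.1 to 13.2 with a longer upper tail.

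The regions called in all 4 libraries outside dense windows were stronger in the same lists. Their median fold was 10.05, 11.03 and 11.3, with 13.2 in control 1. Their upper quartiles were 15.7, 18.1 and 19.5, against 8.21, 7.89 and 8.47 for the members. Merged width differed little, with a median of 193 bp over the members and 185 bp over the regions of all 4 libraries. Outside dense windows, the weaker a site was in the 3 libraries, the more often control 1 lacked it. Leaving those windows out raises these shares, and the trend over all 1314 regions is not given here. The 911 regions outside them were ranked by the smallest of their 3 percentiles of fold enrichment, each taken within the library's own list. Control 1 lacked 88.2% of the 169 regions at or below the 25th percentile (exact interval 82.3 to 92.6), 86.3% of 234 up to the 50th and 81.7% of 241 up to the 75th. It lacked 62.9% of 143 up to the 90th (54.5 to 70.9) and 9.68% of the 124 above (5.10 to 16.3). The fall was therefore steepest among the strongest regions.

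**Figure D2:**
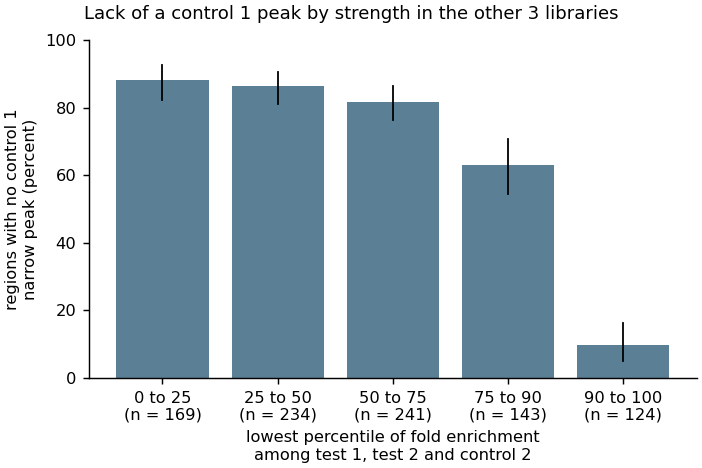
Bars give the percent of regions with narrow peaks in test 1, test 2 and control 2, outside dense windows, that had no control 1 narrow peak, by the lowest of their 3 fold-enrichment percentiles. Lines are 95% exact intervals, which cover counting error only. The bars fall from 88.2% to 9.68%.

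Pileup can be set beside the depth of control 1 as a description. The median rate of the members was 1.46, 1.16 and 1.33 fragments per 1000000 nucleosome-free fragments, against 0.505 over all narrow peaks of control 1. At the depth of control 1, those 3 rates would be 23.2, 18.4 and 21.0 fragments. Of the 10217 narrow peaks of control 1, 90.3% lay below the median rate of the members in test 1, 88.1% below that in test 2 and 89.5% below that in control 2. A rate per nucleosome-free fragment is not a like quantity where those fragments are 50.2% of a library and at most 29.6% of the others, and each list has its own lowest rate. Whether weaker signal at the members accounts for the missing calls was not tested. Calls also depend on the local background, whose genome-wide level, from the header values, was 0.363 fragments in control 1 and 0.155 to 0.181 in the other 3.

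Broad peaks were not used to choose the sites, but they include the same short fragments and so are not independent of the narrow calls. A broad peak of test 1 overlapped 622 of the 661 sites (94.1%, exact interval 92.0 to 95.8), against 24.4% of the 16597 merged regions that are not members. A broad peak of test 2 overlapped 597 (90.3%, 87.8 to 92.5), against 29.9%. Control 2 had a broad peak at 634 (95.9%, 94.1 to 97.3), against 29.3%. Control 1 had one at 111 (16.8%, 14.0 to 19.9), against 29% of the other regions. Where only broad peaks with a −log10 q of 5 or more counted, the share was 0.756% in control 1, against 81.5%, 67.3% and 84.9%. Shares of the other regions at that threshold are not given here, so these values cannot be called particular to the members. The 3 libraries that defined the sites thus had broad peaks at nearly all of them, and control 1 at fewer than at other regions. The other regions include 8672 called in control 1 alone.

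At 472 sites (71.4%) broad peaks were called in test 1, test 2 and control 2 and not in control 1, the same pattern as the narrow calls. A further 108 sites (16.3%) had a broad peak in all 4 libraries, and 14 had none in any. In the regions called in all 4 libraries outside dense windows, broad peaks were less frequent in the 3 libraries, at 60.9%, 66.7% and 64.4%, and stood at 72.8% in control 1. Members lack a control 1 narrow peak by definition and the regions called in all 4 libraries have one. Their control 1 shares are therefore partly set by the choice of regions, and the differences were not tested. Regions called in only 2 of the 3 libraries also had control 1 as the lowest. They too lack a control 1 narrow peak by definition, which partly sets that low share. The 495 regions of test 1 and control 2 alone had a test 2 broad peak at 74.1% and a control 1 broad peak at 8.69%. The 403 regions of test 2 and control 2 alone had a test 1 broad peak at 74.2% and a control 1 broad peak at 9.18%. In the 213 regions of both test libraries alone these were 82.2% for control 2 and 5.16% for control 1.

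**Figure D3:**
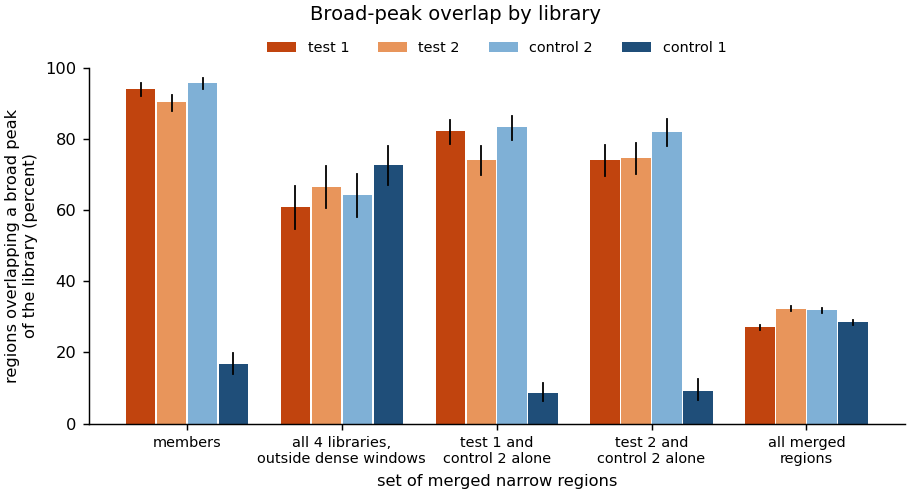
Bars give the percent of regions that overlapped a broad peak of each library, for the members, for regions called in all 4 libraries outside dense windows, for 2 sets called in 2 libraries alone and for all merged regions. Lines are 95% exact intervals, counting error only. Control 1 stands at 16.8% in the members and 72.8% in the regions of all 4 libraries.

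Control 1 had weak broad peaks even where it had them. At the 108 sites with a broad peak in all 4 libraries, the median broad pileup per 1000000 fragments of all lengths was 1.36, 1.03 and 1.26, and in control 1 it was 0.367. Control 1 was the lowest of the 4 at all 108 sites, with a median of 0.296 times the mean of the other 3 libraries. On broad fold enrichment, a ratio within each library, control 1 stood at 0.641 times that mean and was the lowest at 105 of the 108. At the same sites control 2 was at 1.05 times the mean of the test libraries on broad pileup per 1000000 fragments. On broad fold enrichment control 2 was at 0.980 times that of the test libraries. Median broad widths were 558.5, 521 and 594 bp, and 284.5 bp in control 1. In the 134 regions called in all 4 narrow lists outside dense windows that also had 4 broad peaks, control 1 reached 0.820 times the mean of the other 3, and was the lowest at 77 of them. On broad fold enrichment control 1 was instead above the other 3 in those regions, at 1.13 times their mean, and the lowest at 30, so the direction there turns with the scale. Members lack a control 1 narrow peak by definition, so a lower broad signal there is partly what the choice of sites sets, and no test was run. Broad pileup is a mean over each library's own broad peak, whose widths differ.

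**Figure D4:**
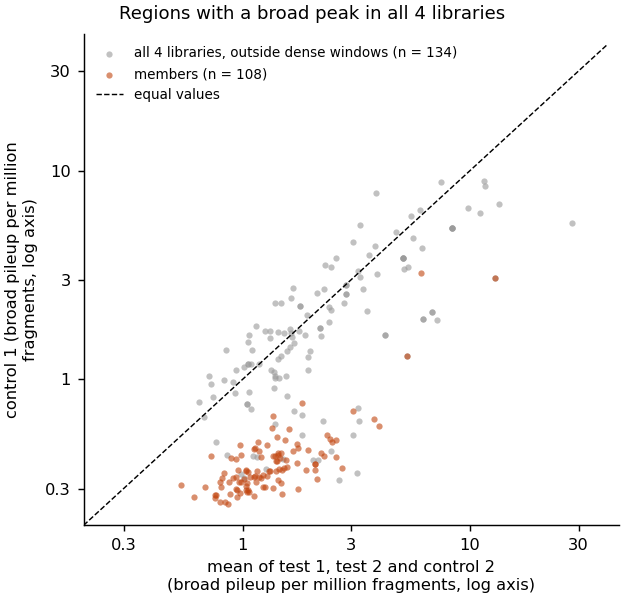
Each point is a region with a broad peak in all 4 libraries, with broad pileup per 1000000 fragments in control 1 (vertical, log axis) against the mean of test 1, test 2 and control 2 (horizontal, log axis). All 108 members lie below the dashed line of equal values, with a median ratio of 0.296, and the 134 regions called in all 4 narrow lists outside dense windows lie nearer to it, with 0.820. On broad fold enrichment, not plotted, the same ratios are 0.641 and 1.13.

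A control 1 broad peak was more frequent at the stronger sites. Members were split by rank into 4 parts of like size. In the lowest of them, 14 of 166 had one (8.43%, exact interval 4.69 to 13.7). In the highest, 45 of 165 did (27.3%, 20.6 to 34.7), and those between had 13.3% and 18.2%. Members with a control 1 broad peak were wider, with a median of 225 bp against 188 bp for the 550 without. Their median fold was 7.31, 7.01 and 8.10, against 6.54, 6.45 and 7.07.

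Sites with a narrow peak in all 3 libraries allow a comparison of the test cells with control 2, although no test was formed with 2 libraries against 1. Control 2 stands here for the control group alone, and it was also the deepest of the 3. The log2 ratio of the mean test fold to the control 2 fold had a median of -0.056, with quartiles of -0.32 and 0.16. Both test libraries were above control 2 at 163 sites (24.7%) and below it at 280 (42.4%), beside 26.4% and 41.8% of all 1314 regions with peaks in the 3 libraries. The mean of the test libraries was 1.5 times control 2 or more at 26 sites (3.93%), beside 2.74% of the 1314. It was lower by that factor at 49 (7.41%), beside 5.78%. The 1314 include the members. In the 653 regions called in all 4 libraries, whose pileups were higher, the shares were 1.53% (10 regions) and 4.13% (27), below those of the members, and the difference was not tested. On pileup per 1000000 nucleosome-free fragments the median log2 ratio was 0.066, of the other sign, so a direction depends on the scale.

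The site furthest above control 2 in the test libraries was chr21:47604395-47604682, with folds of 16.004, 13.8 and 8.10. Its pileups were 24, 23 and 11 fragments in the same order. Broad peaks there had folds of 9.54, 9.995 and 9.14, which lie closer together, and control 1 had one of 3.66. At chr5:90679217-90679388 the folds were 6.83, 10.5 and 4.76, with pileups of 9, 13 and 6. At chr1:40626890-40627066 they were 11.8, 10.2 and 6.28, with broad folds of 6.21, 5.69 and 4.84. The next 2 lay on chromosome 2, at 242294848 to 242295042 (folds of 10.7, 13.3 and 6.93) and at 26256742 to 26256989 (8.64, 11.6 and 5.89). At all 5 sites both test libraries were above control 2, on pileups of 6 to 24 fragments.

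Furthest below control 2 lay chr10:112326977-112327149, with folds of 6.39, 5.90 and 14.8. Its pileups were 8, 7 and 21, and its broad folds 5.63, 4.86 and 6.40. The other 4 lay on chromosome 1. At chr1:9599265-9599442 the folds were 5.80, 4.18 and 10.3, and at chr1:21934400-21934541 they were 4.23, 5.50 and 10.03. The latter had a broad peak in control 2 alone, with a fold of 4.66. At 247242084 to 247242234 they were 5.25, 4.63 and 9.59, and at 85742282 to 85742434 they were 6.14, 5.68 and 11.4. Both groups of sites were picked as the extremes of 661, on small pileups.

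The strongest member was chr5:93905093-93905233, with folds of 30.2, 30.2 and 35.5. Its pileups were 44, 45 and 64 fragments, and no library had a broad peak there. The second, chr2:88124415-88124490, had folds of 27.8, 23.9 and 42.2 on 40, 33 and 70 fragments. All 4 libraries had a broad peak at this site, with folds of 8.07, 7.51 and 9.71, and 5.84 in control 1. These 2 sites stood well above the rest of the set.

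The third, chr12:95629-95732, lay close to the end of its chromosome, with narrow folds of 15.9, 18.2 and 16.8. A control 1 narrow peak lay 106 bp away, and control 1 had a broad peak over the site with a fold of 11.97, against 19.6, 17.2 and 16.4. This member thus had a control 1 peak close by and a broad one over it. The same broad values stand at chr12:95431-95534, a region called in all 4 libraries with a control 1 narrow fold of 10.7. The broad values are therefore not particular to this member. The fourth, chr19:37464329-37464478, had narrow folds of 12.8, 15.5 and 13.2 and a control 1 broad fold of 3.39, below the 5.12, 5.54 and 5.65 of the other libraries. The fifth, chr20:34204240-34204491, had 11.9, 12.3 and 11.3 on about equal pileups of 30, 30 and 31, with no control 1 broad peak.

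The remaining sites of the 10 strongest had folds of 9.78 to 13.4 in the 3 libraries. Ranking by the lowest percentile leaves out sites that are weak in any of them. They were chr19:18747371-18747697 (13.2, 12.7 and 10.4), chr10:76585930-76586360 (13.1, 10.5 and 11.7) and chr17:73901046-73901184 (10.3, 12.1 and 11.9). The last 2 were chr6:169825434-169825929 (10.2, 10.1 and 11.3) and chr1:31191073-31191236 (12.7, 9.78 and 13.4). Control 1 had a broad peak at the sites on chromosome 19, chromosome 10 and chromosome 6, with folds of 2.85, 3.17 and 3.92. In each the other 3 libraries had broad folds of 5.58 or more. The sites on chromosomes 17 and 1 had no control 1 peak of either kind.

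The weakest members showed both ways of passing the call on little enrichment. At chr1:570194-570279 pileups of 212, 183 and 299 gave folds of only 3.44, 3.27 and 3.41, since the local background was 60.8, 55.2 and 87.1 fragments. No library had a broad peak there, the site lay in a dense window, and a control 1 narrow peak was 217 bp away. At chr2:133012484-133012599, also in a dense window, the folds were 4.01, 3.49 and 4.57 on 26, 21 and 33 fragments. At chr22:38240320-38240479 the folds were 3.91, 4.71 and 5.63 on 4, 5 and 6 fragments. Those at chr14:70233683-70233872 were 6.76, 5.01 and 3.89, and those at chr5:131892534-131892689 were 3.96, 5.37 and 5.50. The deposited fold includes a pseudocount of 1, so a pileup of 4 stays below a fold of 5.

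Member peaks were compact and mostly single. Each of the 3 libraries had exactly 1 narrow peak at 636 of the 661 sites, and merged widths ran from 76 to 616 bp. Median peak widths were 130, 117 and 141 bp. The summits of the 3 libraries spanned a median of 52 bp, and at most 50 bp at 315 sites (47.7%), against a median of 19 bp in the regions of all 4 libraries outside dense windows, whose pileups were higher. The widest was chr20:32580938-32581553 (616 bp), with folds of 9.49, 6.80 and 8.15 and a control 1 broad fold of 2.59. Next came chr16:5147965-5148521 (557 bp, 8.53, 6.58 and 6.93) and chr14:105957061-105957584 (524 bp, 7.57, 4.90 and 6.07). After the site on chromosome 6 named above, at 496 bp, came chr16:84047668-84048147 (480 bp, 6.15, 6.74 and 8.43).

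The 14 sites with no broad peak in any library included, after the strongest member, chr1:23888899-23889002 with folds of 7.27, 7.91 and 8.57. The next were chr11:65686711-65686826 (6.75, 8.58 and 8.77), chr19:11201125-11201248 (6.39, 6.80 and 7.56) and chr7:72425293-72425403 (6.35, 7.46 and 8.11). All 5 were 104 to 141 bp wide, below the median of the members. At all 5 control 2 was the highest of the 3 libraries, as it was at 42.4% of all members. These 5 were picked as the strongest of the 14, and the rest are not described here.

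Few members lay beside a control 1 peak. The distance to the nearest control 1 narrow peak had a median of 67175 bp, and was at most 1 kb at 12 sites and at most 10 kb at 67. The closest after the site on chromosome 12 was chr7:106809039-106809153, at 125 bp, with folds of 7.52, 10.3 and 13.6. Then came the site on chromosome 2 in a dense window, at 151 bp, chr2:740421-740822 at 167 bp (9.54, 11.2 and 10.1) and the weakest member at 217 bp. Just outside the rule lay chr19:20162922-20163393, which shared 1 bp with a control 1 peak of fold 4.96, and had folds of 9.27, 8.91 and 8.19. Overlaps of 37 to 63 bp joined control 1 peaks of fold 4.22 at chr17:18684471-18684618, 4.08 at chr10:63808889-63809170 and 3.84 at chr7:135662149-135662296. These 3 control 1 peaks each rested on 5 fragments, and their sites had folds of 4.74 to 9.78 in the other 3 libraries. Sites just inside and just outside the rule overlapped in fold.

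By chromosome, members were most numerous on chromosome 1 with 126 (19.1%, exact interval 16.1 to 22.3) and chromosome 19 with 87 (13.2%, 10.7 to 15.98). Chromosome 19 is small and rich in genes, with large clusters of zinc finger genes. Per Mb of the span covered by peaks it had 1.47 members, against 0.652 on chromosome 20, the next, and 0.506 on chromosome 1. The share on chromosome 19 was above that in every whole narrow list, at 8.37%, 6.97% and 6.83%, and 3.30% in control 1. It was 6.51% in the regions of all 4 libraries outside dense windows. Members were few on chromosomes 4 (10, 1.51%), 9 (10, 1.51%) and 18 (2, 0.303%), where the narrow lists of the 3 libraries held 3.82% to 4.15%, 3.41% to 3.68% and 1.35% to 2.16%.

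The share of otherwise shared regions that control 1 lacked also differed between chromosomes. Outside dense windows that share did not follow the share of members throughout. Outside dense windows control 1 lacked 83.7% of the 104 regions of chromosome 19 and 84.8% of the 145 of chromosome 1, against 45.5% of 22 on chromosome 4, 31.0% of 29 on chromosome 9 and 51.2% of 41 on chromosome 12. With dense windows kept, the shares were 78.4% of 111 on chromosome 19 and 70.4% of 179 on chromosome 1. They were 13.0% of 77 on chromosome 4, 22.2% of 45 on chromosome 9 and 51.2% of 41 on chromosome 12. Leaving those windows out thus raised the shares unevenly between chromosomes. Chromosome 12 held 3.18% of the members, within the 2.73% to 3.93% of its narrow lists in the 3 libraries. On chromosome 10 control 1 lacked 80.4% of 56 regions outside dense windows but 36.0% of all 125. Its 6.81% of members was below the 7.31% to 7.83% of those lists. Chromosome 18 had only 4 regions outside dense windows. Chromosome 20 stood at 74.5% of 55 outside them and at 65.1% of all 63. The control 1 list held a larger share of its peaks on chromosome 20 (6.75%) than the other 3 lists (4.14% to 4.59%). Broad peaks of control 1 lay at 19.5% of the members on chromosome 19 and 21.4% on chromosome 1, near the 16.8% of all members.

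**Figure D5:**
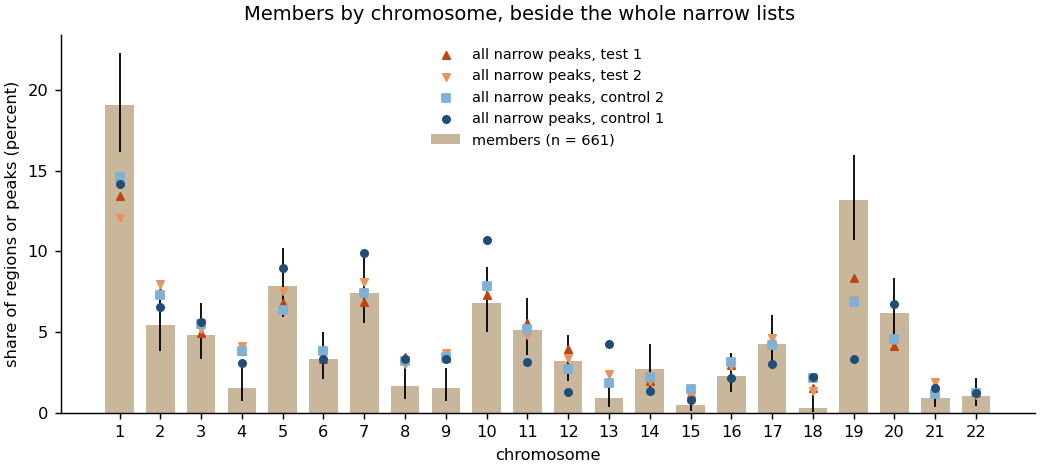
Bars give the percent of the 661 members on each chromosome with 95% exact intervals (counting error only), and markers the percent of all narrow peaks of each library. On chromosome 19 the bar stands at 13.2% and the control 1 marker at 3.30%.

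The members were spread out. They fell in 447 windows of 1 Mb, 320 of which held 1 member, and the nearest other member was a median of 426044 bp away. Only 27 (4.08%) had another member within 10 kb. The fullest windows were chromosome 19 from 11000001 to 12000000 and from 37000001 to 38000000, with 8 members each and 12 and 15 narrow peaks of control 1. A window on chromosome 1 from 45000001 to 46000000 held 6 members and 1 control 1 narrow peak, and one on chromosome 20 from 32000001 to 33000000 held 6 and 13. Dense windows held 11 members (1.66%, exact interval 0.834 to 2.96), against 392 of the 653 regions called in all 4 libraries (60.0%). The windows were defined by regions that hold a control 1 peak, so a low share of members in them is partly set by that definition.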

How the data were processed

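ATAC-seq peak lists of 4 OVSAHO libraries were used, a narrow and a broad list from each. Per the file headers, each library was called on its own with MACS2 2.2.7.1, with no control sample, with all duplicates kept and a q threshold of 0.05. Narrow peaks came from nucleosome-free fragments and broad peaks from all fragments. Per the submitters' processing notes the build was hg19. The deposited pileup is a coverage signal in fragments, the deposited fold enrichment is a ratio to the library's own local background, and the deposited p and q are on the −log10 scale, none normalized between libraries. A deeper library can pass the threshold at weaker sites, and duplicates add to pileup.

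Overlapping peaks (at least 1 bp) were joined into regions. In each library the peak with the highest fold stood for a region. The local background was recovered as pileup plus 1, divided by fold enrichment, minus 1. Shares have 95% exact (Clopper-Pearson) intervals. Tests across libraries were not run, since the calls of all 4 define the sites. Members and lists were chosen with earlier results of these data known. Regions named are the 10 with the highest and 5 with the lowest score (the smallest of the 3 percentiles), the 5 most extreme ratios each way, the 5 widest, the 5 strongest without and with broad peaks in all libraries, and the 5 nearest the rule on each side, of which 4 outside it are printed. Planned motif, promoter and gene analyses were not run for want of an hg19 reference here. Merging was tested on simulated data, where 3000 of 3000 regions were assigned to the right libraries. Of 500 edge sites, 250 were called in all 4 libraries and 250 as members, the planned counts. Edge sites were counted and not checked singly. Tables were made in Python 3.11.15 with pandas 2.3.3 and numpy 2.4.6, intervals with scipy 1.17.1, and plots with matplotlib 3.10.9.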

Additional observations from a re-analysis of the deposited data

How the results depend on the processing

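Of 159 values under other settings, 101 were counted as unchanged and 58 were not. Unchanged meant within 1.5 times the count of members or within the 95% interval of the main value. The exception was the comparison with control 2 as a difference of percentiles, with a median of -7.23 percentage points. It was counted as unchanged by its sign alone. With a −log10 q of 5 or more in all 4 lists there were 220 members, 28.9% of the otherwise shared regions lacked control 1, the median folds were 8.58, 8.07 and 8.57 in test 1, test 2 and control 2, 30% of members had a control 1 broad peak and the median log2 ratio was -0.0090. With that threshold in test 1, test 2 and control 2 alone these were 199 members, 26.2%, 8.50, 8.002 and 8.55, 26.1% and -0.011. With lists of equal length (3311 peaks) the median folds were 6.89, 6.93 and 7.49, the control 1 broad share 20.8% and the log2 ratio -0.11. The share lacking control 1 was 41.9% where broad peaks also counted, and 71.4% without dense windows. Broad peaks with a −log10 q of 5 or more lay at 81.5%, 67.3%, 0.756% and 84.9% of members in test 1, test 2, control 1 and control 2, and an overlap of 50% of the member gave 13.3% in control 1. Shares of other regions under these settings are not given here.

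The rule's requirement on each library was dropped in turn, with the peaks of all 4 libraries still merged. This gave 874 (control 2 dropped) to 1314 (control 1 dropped) regions, with 1064 for test 1 and 1156 for test 2. The share lacking control 1 was then 55.3% to 62.5%, the median folds 6.34 to 7.29 in test 1, 6.19 to 7.32 in test 2 and 6.63 to 7.66 in control 2, and the log2 ratio -0.095 to -0.049. Broad shares were 82.9% to 91.4% in test 1, 83.0% to 87.6% in test 2, 85.5% to 92.6% in control 2 and 13.3% to 50% in control 1. The last was found where a control 1 narrow peak was allowed. Sets with a requirement dropped are larger because the rule asks less of them, and sets under a stricter threshold hold fewer peaks. No paired analysis was possible because control 1 has no narrow value at these sites and the results come from no test. Pileups of about 8 to 10 fragments limit the precision of every single site.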
